A study of Mus musculus with 9 samples.

Results

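The RNA of *Fzd3* mutant cerebral cortex was compared directly, gene by gene, with that of *Celsr3* mutant cerebral cortex. The members were chosen by the genotype on the sample labels: 3 libraries labelled Fzd3 -/- and 3 labelled Celsr3 -/-, which are 6 of the 9 RNA-seq libraries of the series. The other 3 libraries are labelled +/+ and serve as controls, and here they are given only as levels beside the mutants. Every library came from mouse embryonic cortex taken at E16.5. The deposited table lists 14670 genes, and all of them were compared. Each row is counted as a gene, and 23 rows share a symbol with an earlier row. Libraries keep the numbers on their labels, 1 to 3 for *Fzd3* and 1, 2 and 4 for *Celsr3*, and values are given in that order.

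The study's methods put both mutant lines on a mixed C57Bl/6 and CD1 background and describe the controls as heterozygous or wild-type littermates, while the labels call the controls wild type. RNA was extracted with Trizol according to the labels and with an RNeasy kit according to the methods. The methods give 3 cortex samples of each genotype and a minimum of 3 animals for animal experiments, but neither source says whether each library is a separate animal, so the p-values measure the spread between these samples. The reads on listed genes came to 42963627, 45848829 and 52249430 in the *Fzd3* mutants and 60333846, 54974978 and 69600589 in the *Celsr3* mutants. Values are reads per gene scaled to a common library total (CPM), and 3 reads correspond to 0.0427 to 0.0697 CPM in the mutant libraries. Differences are *Fzd3* minus *Celsr3* mutants on the scale of log2(CPM + 0.5), so a negative value is lower in *Fzd3* mutants. A gene is called when its limma p-value, adjusted over all 14670 genes, is under 0.05.

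*Celsr3* encodes an atypical cadherin and *Fzd3* a Frizzled receptor, and both belong to the planar cell polarity pathway, which directs axon tracts in the developing forebrain. During cortical neurogenesis, radial glia divide at the ventricle and give rise to basal progenitors and neurons, with neurons of the deep layers born before those of the upper layers. Notch signalling, in which ligands on a neighbouring cell activate receptors on the progenitor, holds progenitors back from differentiation. The direct comparison asks in which genes the cortices of these mutants differ from each other.

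*Celsr3* itself, at chr9:108826320-108852969 on the plus strand of GRCm38, measured 253, 213 and 255 CPM in the *Fzd3* mutants and 122, 139 and 118 CPM in the *Celsr3* mutants. The groups did not overlap, and *Celsr3* RNA was 1.89-fold higher in *Fzd3* mutants (log2 difference 0.92, SE 0.08, limma adjusted P = 1.26e-04). The transcript was therefore still present in the libraries labelled Celsr3 -/-, at a lower level than in the 196, 243 and 214 CPM of the controls. *Fzd3*, at chr14:65192449-65262463 on the minus strand, measured 46.5, 39.8 and 59.6 CPM in the *Fzd3* mutants and 52.1, 61.1 and 54.8 CPM in the *Celsr3* mutants. These groups overlapped, and *Fzd3* was not called (log2 difference -0.22, SE 0.127, adjusted P = 0.23). The deposited values are per gene and not per exon, so the level of *Fzd3* does not check the *Fzd3* label. The tissue label was checked against cortical genes: the projection neuron gene *Tbr1* lay between 277 and 351 CPM and *Dcx*, a microtubule protein of young neurons, between 1829.6 and 2028 CPM in the 6 mutant libraries.

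A few libraries stood apart before any comparison. *Xist*, the RNA that silences an X chromosome in female cells, measured 998, 1008 and 1147 CPM in the *Fzd3* mutants but 806, 0.744 and 806 CPM in the *Celsr3* mutants. *Celsr3* library 2 alone was low among the mutants, and 0 of the 4 Y-linked genes looked for are listed. *Celsr3* library 4 held more RNA of connective tissue genes, with *Col3a1* at 6.86, 4.95 and 87.6 CPM and *Col1a2* at 3.49, 2.25 and 49.4 CPM in the *Celsr3* libraries. *Fzd3* library 3 lay apart from the other *Fzd3* libraries for some genes, among them the ribosomal protein gene *Rplp0* at 739.9, 739.6 and 489 CPM. Without *Fzd3* library 3, 4468 genes were called, and without *Celsr3* library 4 or library 2 the counts were 3201 and 3136. On log2 values, Pearson correlations were 0.994 to 0.997 between *Fzd3* libraries, 0.993 to 0.994 between *Celsr3* libraries and 0.978 to 0.986 between the mutants, across genes, which are not independent replicates.

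Most listed genes of the cell cycle and of basal progenitors were called lower in *Fzd3* than in *Celsr3* mutant cortex, and most listed receptor, channel and presynaptic genes were called higher, though fewer than most of the channel and presynaptic genes without *Fzd3* library 1 or with an ordinary linear model. The mitosis genes were all called lower, and so were the listed markers of basal progenitors. Most receptors for glutamate and GABA were called higher. In all, 4314 of 14670 genes were called (29.4%), of which 2064 were lower (14.1% of all genes) and 2250 higher (15.3%). Most differences were modest: the median size among called genes was a log2 difference of 0.37, or 1.30-fold. A size of at least 1 was reached by 59 genes called lower and 268 called higher. Over all genes the median difference was -0.0047, with quartiles at -0.14 and 0.15. The values of all 3 *Fzd3* libraries lay on the same side of all 3 *Celsr3* libraries for 6584 genes (44.9%), which include 4259 of the called genes.

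The number of calls depended on how the spread was estimated. With an ordinary linear model for each gene 2006 genes were called, with a block for the library number over all 9 libraries 2101, and without *Fzd3* library 1 the count was 2771. Among the third of genes with the lowest mean level, 378 were called lower and 752 higher, and among the third with the highest mean level 957 were lower and 783 higher. Across genes, which are not independent replicates, the difference had a Spearman correlation of -0.0874 with mean level (n = 14670), 0.0684 with exon length (n = 14407) and -0.0445 with GC content (n = 14395).

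**Figure D1:**
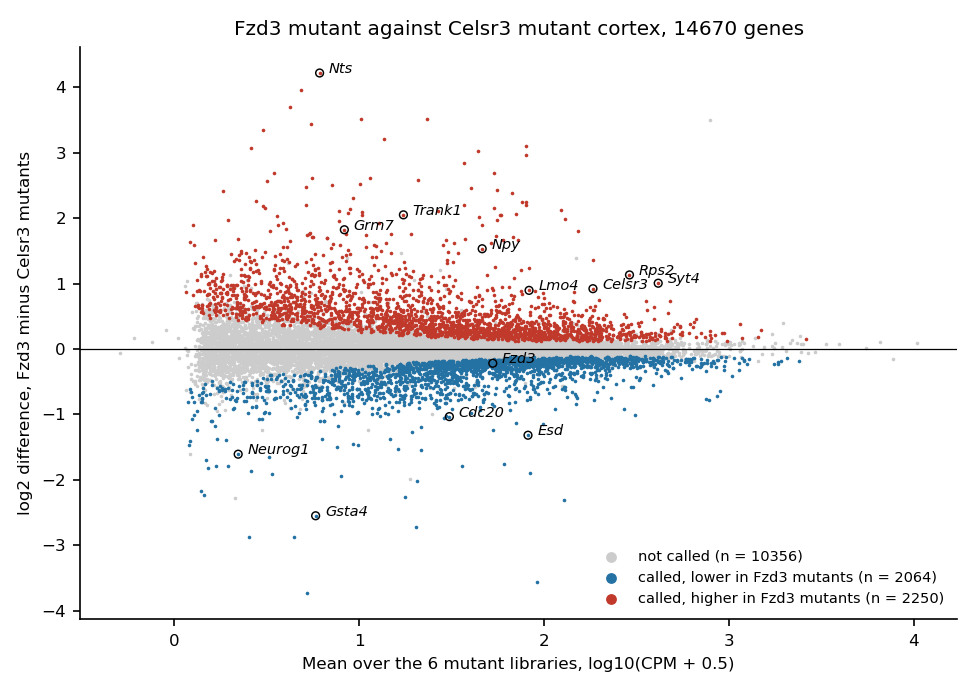
Log2 difference between *Fzd3* and *Celsr3* mutants for 14670 genes (y axis) against the mean of the 6 mutant libraries (x axis, log10 scale of CPM + 0.5), with called genes coloured by direction. The 2064 genes called lower and 2250 called higher spread over the whole range of levels. *Nts* has the largest difference among the genes marked, 4.22, a value that depends on the pseudocount.

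Basal progenitors, the intermediate cells that divide away from the ventricle and produce neurons, gave the lowest median of the 39 gene lists, although mitosis genes lay lower without *Celsr3* library 2 or 4 and in 3 other alternatives. Of 11 listed markers, 11 were called lower and 0 higher, with a median log2 difference of -0.74 beside -0.0047 over all genes. *Eomes*, the transcription factor that defines these cells, measured 97, 111 and 129 CPM in *Fzd3* mutants and 170.2, 201 and 198 CPM in *Celsr3* mutants. Every *Fzd3* value lay below every *Celsr3* value, a 1.69-fold difference (log2 -0.76, SE 0.0995, adjusted P = 8.49e-04). The proneural gene *Neurog2*, which drives progenitors toward the neuronal fate, measured 40.4, 44.4 and 49.4 CPM against 75.8, 87.3 and 93.5 CPM (log2 -0.93, adjusted P = 2.11e-04). Its relative *Neurog1* was rare, with 0.395, 0.475 and 0.935 CPM against 2.1, 3.05 and 3.33 CPM (log2 -1.61, or -2.11 and -1.26 with pseudocounts of 0.1 and 1). *Rhbdl3*, a rhomboid-like membrane protein, measured 16.6, 16.6 and 21.8 CPM against 35.2, 40.9 and 39.5 CPM (log2 -1.06). In none of these 4 genes did the mutants overlap. The summed level of the 11 genes was 344, 369.9 and 407 CPM in *Fzd3* mutants, 567, 621 and 637 CPM in *Celsr3* mutants and 568, 603 and 514 CPM in controls, so the *Fzd3* mutants held the lower values. In these bulk samples, fewer cells of a type and less RNA per cell cannot be told apart.

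Radial glia, the apical progenitors that line the ventricle, showed a more divided picture. Of 21 listed markers, 13 were called lower, 3 higher and 5 not called, with a median of -0.31. *Pax6*, a transcription factor of cortical radial glia, measured 42.5, 47.9 and 50.6 CPM in *Fzd3* mutants and 68, 73.8 and 79.3 CPM in *Celsr3* mutants (log2 -0.64, SE 0.0766, adjusted P = 5.24e-04). *Gli3*, a transcription factor of the Hedgehog pathway, measured 32.2, 32.5 and 39 CPM against 52, 62.1 and 62.1 CPM (log2 -0.76). Both were lower in *Fzd3* mutants with no overlap, as were *Nes* (-0.58), *Vim* (-0.55) and *Sox2* (-0.37). *Tnc*, a matrix glycoprotein made by radial glia, went the other way, with 236, 232 and 222 CPM against 161, 154 and 123 CPM (log2 0.66, adjusted P = 8.14e-04). *Hopx* (0.37) and the glutamate transporter gene *Slc1a3* (0.14) were also higher, but neither was called without any 1 of the *Fzd3* libraries or without *Celsr3* library 2, nor was *Hopx* without *Celsr3* library 1 or *Slc1a3* without *Celsr3* library 4. *Ptprz1*, a receptor phosphatase and the most abundant member by CPM, measured 640.1, 635 and 693 CPM against 631, 728 and 653 CPM, and these overlapped. With an ordinary linear model 6 of the 21 were called lower.

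The cell cycle lists moved as a block. Of 28 mitosis genes, 28 were called lower and 0 higher, with a median of -0.72 and single differences from -1.03 to -0.47. Of 28 listed genes of DNA replication, 25 were lower and 0 higher, with a median of -0.44. *Cdc20*, the activator of the complex that starts anaphase, measured 19.2, 18.6 and 21.4 CPM in *Fzd3* mutants and 39.7, 41.1 and 41.6 CPM in *Celsr3* mutants. The groups lay far apart, a 2.05-fold difference (log2 -1.03, SE 0.0668, adjusted P = 2.34e-05). *Ube2c*, the ubiquitin-conjugating enzyme of the same complex, measured 20.1, 22.5 and 22.1 CPM against 38.3, 40.5 and 45 CPM (log2 -0.92), and the spindle checkpoint kinase gene *Bub1b* 28.6, 29.4 and 35 CPM against 52.3, 58 and 62.5 CPM (log2 -0.88). *Top2a*, which untangles replicated DNA, measured 151, 173 and 189.9 CPM against 256, 289.5 and 314 CPM (log2 -0.74, adjusted P = 6.00e-04). All 4 were separate between the mutants.

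Among replication genes the differences were smaller. *Cdc6*, which helps load the replicative helicase, measured 4.3, 5.64 and 6.43 CPM against 9.27, 9.92 and 9.82 CPM (log2 -0.79, adjusted P = 0.00325), and *Ung*, which removes uracil from DNA, 5.18, 4.71 and 5.38 CPM against 7.78, 9.4 and 9.57 CPM (log2 -0.75). *Cdca7* differed by -0.71 and the helicase subunit gene *Mcm7*, the most abundant of the list by CPM, by -0.29. The genes not called were *Gins1* (-0.21), *Pola1* (-0.18) and *Prim1* (-0.16). Summed over the list, mitosis genes came to 918, 962 and 1104 CPM in *Fzd3* mutants, 1509.9, 1662 and 1803 CPM in *Celsr3* mutants and 1714, 1803 and 1556 CPM in controls. The *Celsr3* mutants and the controls overlapped in this sum, and the *Fzd3* mutants lay below both. Leaving out any of the 6 libraries kept the count at 28, and the ordinary linear model gave 18. Of the replication genes, 16 to 25 were called lower over the 20 alternatives. Of 18 replication-dependent histone genes, 1 was called lower and 1 higher (5.56% each, beside 14.1% and 15.3% of all genes). Their median was -0.069, and 2 were higher without *Celsr3* library 4. They summed to 82.9, 82.3 and 81.9 CPM in *Fzd3* mutants and 84.1, 86.2 and 84.7 CPM in *Celsr3* mutants, with *Hist3h2ba* the most abundant. Whether these low levels follow DNA replication was not tested.

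**Figure D2:**
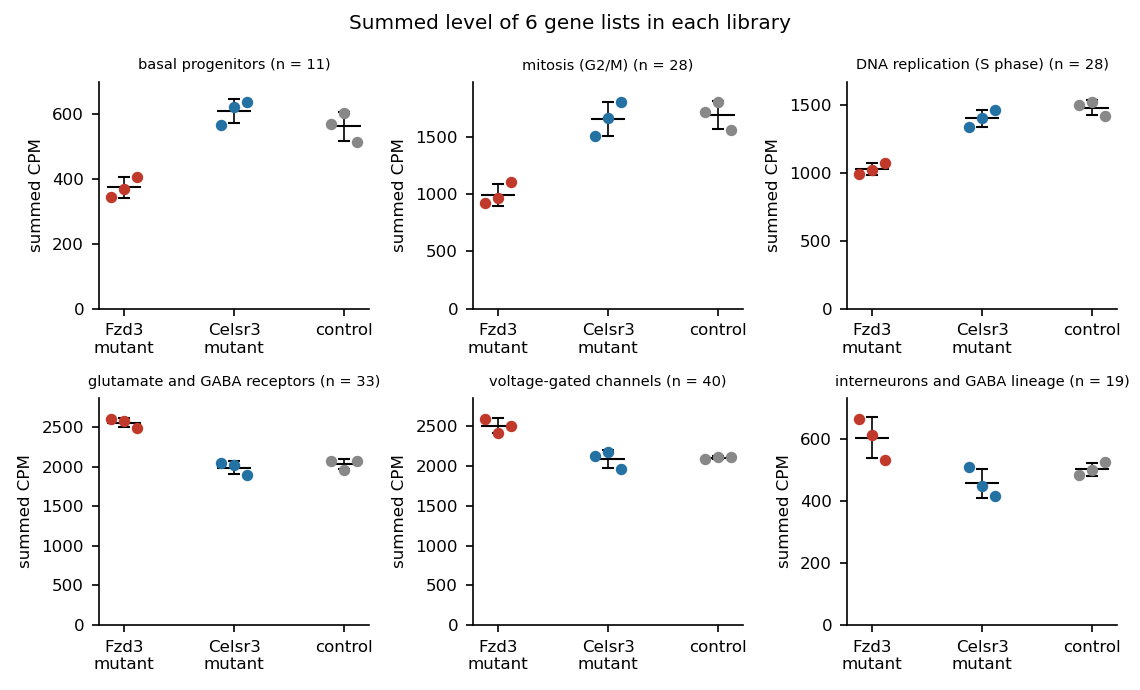
Summed CPM of 6 gene lists in each library (points) with the mean and SD of each group of 3 (bars), for *Fzd3* mutants, *Celsr3* mutants and controls. Basal progenitor, mitosis and DNA replication genes are lowest in the *Fzd3* mutants, and receptor and channel genes are highest there.

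Because the mitosis genes moved together, the promoters of the 4 members described above are shown, as the 250 bases before the gene's start. The sequences are from RefSeq on GRCm38.p6, which has a promoter for 24 of the 28 mitosis genes and 25 of the 28 replication genes. Both strands were searched for TTTGAA, the core of the cell cycle genes homology region, for the CCAAT box, for GGCGGGAA, an E2F core, and for TGGGAA, the core bound by RBPJ, all chosen after the list values were seen. TTTGAA occurred in the window of 300 bases around the start in 19 of 24 mitosis genes (79.2%), 4 of 25 replication genes (16%) and 20.2% of 27025 genes. In the 250 bases before the start alone, the counts were 9 of 24, 4 of 25 and 18.3% of genes. CCAAT occurred within 300 bases in 20 of 24 mitosis genes (83.3%), 17 of 25 replication genes (68%) and 41.1% of all genes, and GGCGGGAA in 0 of 24, 5 of 25 and 2.52%. TGGGAA occurred in 5 of 24, 13 of 25 and 28.3%, and in 2 of the 3 Notch target genes with a promoter. A match describes the letters only. In the promoters of *Cdc20* (chr4:118437344-118437593, minus strand), *Ube2c* (chr2:164769679-164769928, plus strand), *Top2a* (chr11:99024190-99024439, minus strand) and *Bub1b* (chr2:118597961-118598210, plus strand), capitals mark TTTGAA and CCAAT on either strand. A TTTGAA match starts 18 bases before the start of *Cdc20*, 29 before that of *Ube2c*, and 179 and 23 before that of *Top2a*. In the 250 bases shown, *Bub1b* has a CCAAT match, at 113 bases, and 0 TTTGAA matches. Its TTTGAA match lies 40 bases after the start, inside the window of 300 bases. In *Ube2c* a pair of CCAAT matches overlap.
Cdc20: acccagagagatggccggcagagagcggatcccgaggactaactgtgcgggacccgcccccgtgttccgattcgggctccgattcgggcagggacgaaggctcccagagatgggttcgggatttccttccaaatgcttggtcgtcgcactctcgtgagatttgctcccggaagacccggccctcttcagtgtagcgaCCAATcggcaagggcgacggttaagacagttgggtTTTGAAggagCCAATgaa
Ube2c: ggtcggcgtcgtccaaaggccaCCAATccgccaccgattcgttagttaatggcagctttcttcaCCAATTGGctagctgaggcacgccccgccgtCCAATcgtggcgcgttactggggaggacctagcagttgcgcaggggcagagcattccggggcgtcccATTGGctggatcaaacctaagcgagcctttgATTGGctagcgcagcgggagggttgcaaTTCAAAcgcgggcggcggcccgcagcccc
Top2a: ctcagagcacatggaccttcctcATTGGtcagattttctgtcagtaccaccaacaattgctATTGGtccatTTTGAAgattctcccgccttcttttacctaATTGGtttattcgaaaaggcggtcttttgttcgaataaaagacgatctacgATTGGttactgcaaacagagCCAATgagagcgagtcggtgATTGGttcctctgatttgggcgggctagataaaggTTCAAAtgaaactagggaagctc
Bub1b: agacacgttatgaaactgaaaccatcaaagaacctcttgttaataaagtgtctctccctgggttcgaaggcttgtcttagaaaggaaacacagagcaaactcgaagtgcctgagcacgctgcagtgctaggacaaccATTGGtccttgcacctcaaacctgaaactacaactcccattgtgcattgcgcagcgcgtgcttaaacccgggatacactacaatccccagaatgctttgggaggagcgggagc

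The Notch lists, which cover the pathway that keeps progenitors undifferentiated, were lower at the level of receptors and targets. Of 4 receptors, 3 were called lower and 0 higher (median -0.40), and of 6 target genes 4 were lower and 0 higher (median -0.49). *Notch1*, the main receptor of cortical progenitors, measured 66.5, 64.2 and 73.8 CPM in *Fzd3* mutants and 95.9, 111 and 108 CPM in *Celsr3* mutants, with no overlap (log2 -0.62, SE 0.0693, adjusted P = 4.11e-04). *Notch2* (64.7, 58 and 68.9 CPM against 79.9, 89.5 and 84.6 CPM) and *Notch3* (22.3, 18.9 and 16.9 CPM against 23.1, 25 and 28.2 CPM) were lower as well, whereas *Notch4*, a receptor of endothelial cells, overlapped (0.16). The target *Hey1*, a transcriptional repressor, measured 13.3, 12 and 10.4 CPM against 18.8, 21.1 and 21.8 CPM (log2 -0.77, adjusted P = 8.75e-04). The repressor genes *Hes5* (6.39, 5.74 and 4.85 CPM against 8.28, 8.44 and 9.65 CPM) and *Hes1* (5.67, 6.8 and 5.69 CPM against 7.73, 8.44 and 10.5 CPM), which maintain radial glia, and the feedback inhibitor gene *Nrarp* (-0.47) were lower too. *Hey2* (-0.31) and *Heyl* (-0.39) overlapped and were not called. With an ordinary linear model, 1 of the receptors and 1 of the targets were called. *Notch3* was not called without *Fzd3* library 2 or 3 or *Celsr3* library 2 or 4, nor *Hes1* without *Fzd3* library 1 or *Celsr3* library 4, and neither was called with a block for the library number.

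Notch ligands and modulators were called in both directions. Of 5 ligands, 2 were lower and 1 higher, with a median of 0.0094. This median turned negative without *Fzd3* library 1 or *Celsr3* library 2. It was also negative with a filter at a mean of 5 CPM, quantile scaling or the block over 9 libraries, and -0.23 at the lowest. *Dll1* was lower (log2 -0.47, adjusted P = 9.96e-04) and kept its call in all 20 alternatives. *Dll3*, a divergent ligand of newborn neurons, was lower as well, at 6.6, 5.61 and 8.3 CPM against 12.3, 10 and 12.3 CPM, and *Jag2* higher, at 41.3, 42.1 and 36.8 CPM against 32.4, 32 and 29.3 CPM (log2 0.35). *Jag1* overlapped (0.0094), and so did *Dll4* (0.31). Of 27 genes that process or modulate the pathway, 5 were lower (18.5%), 4 higher (14.8%) and 18 not called, shares close to the 14.1% and 15.3% of all genes. Without *Fzd3* library 1, *Fzd3* library 2 or *Celsr3* library 2, 3 were lower and 2 higher, and without *Celsr3* library 4, 3 were lower and 3 higher. *Rbpj*, the DNA-binding partner of the cleaved receptor, was lower at 106, 105 and 118 CPM against 139, 149.5 and 152 CPM (log2 -0.42, adjusted P = 9.62e-04), as was the sugar transferase gene *Mfng* (-0.67). *Dtx4*, a ubiquitin ligase of the Deltex family, stood out on the other side with 125, 114 and 109.7 CPM against 55.5, 48 and 43.9 CPM (log2 1.24, adjusted P = 2.99e-05). The ordinary linear model made no call for *Dll3*, *Jag2*, *Notch2*, *Notch3*, *Hes1*, *Hes5* or *Nrarp*.

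Wnt genes leaned lower. Of 26 listed genes of the beta-catenin pathway, 11 were called lower and 5 higher, with a median of -0.26. *Ctnnb1*, which encodes beta-catenin, measured 983, 989 and 1044 CPM in *Fzd3* mutants and 1254, 1245 and 1275 CPM in *Celsr3* mutants (log2 -0.32, adjusted P = 6.12e-04). *Tcf7l1*, a TCF-family transcription factor that represses Wnt targets, measured 3.21, 2.66 and 3.05 CPM against 6.75, 8.54 and 10.7 CPM (log2 -1.38, adjusted P = 4.93e-04). Neither overlapped, and *Nkd1* (-0.89), *Fzd2* (-0.78), *Fzd8* (-0.68) and *Ccnd1* (-0.68) were lower as well. The R-spondin receptor genes *Lgr4* (11.1, 11.1 and 10.3 CPM against 5.34, 4.48 and 4.68 CPM) and *Lgr5* (1.44, 1.71 and 1.79 CPM against 0.501, 0.581 and 0.555 CPM) were higher (log2 1.09 and 1.03), with *Dkk3* at 0.91. The *Celsr3* values of *Lgr5* lie near the pseudocount of 0.5, and its difference ran from 0.77 to 1.43 over the alternatives. The widely used feedback target *Axin2* was not called (-0.12). Over the 20 alternatives, 6 to 13 genes of the list were called lower and 4 to 5 higher.

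Genes of the planar cell polarity pathway, to which both mutated genes belong, divided in both directions. Of 27 listed members, the mutated genes included, 6 were lower (22.2%), 8 higher (29.6%) and 13 not called, with a median of 0.056. The shares of all genes were 14.1% lower and 15.3% higher. *Celsr1*, the family member of progenitors, measured 98.8, 87.5 and 111 CPM against 154, 180.0 and 162 CPM, so it was lower in the *Fzd3* mutants while *Celsr3* was higher (log2 -0.74, SE 0.0857, adjusted P = 4.72e-04). *Vangl2* (-0.38), *Celsr2* (-0.28), *Ptk7* (-0.27), *Dvl3* (-0.23) and *Ankrd6* (-0.37) were also lower, but *Celsr2* was not called without *Fzd3* library 1 or 2 or *Celsr3* library 1 or 2. *Daam2*, a formin that acts on actin, measured 16, 17.4 and 14 CPM against 8.62, 8.36 and 8.76 CPM (log2 0.84), and *Prickle2* was higher by 0.73. *Fzd6*, a close relative of *Fzd3*, was not called (0.15). *Islr2*, the most abundant member by CPM, measured 410.1, 398 and 378 CPM against 344, 343 and 327 CPM, with no overlap (log2 0.22). Over the alternatives, 3 to 7 members were called lower and 5 to 9 higher.

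**Figure D3:**
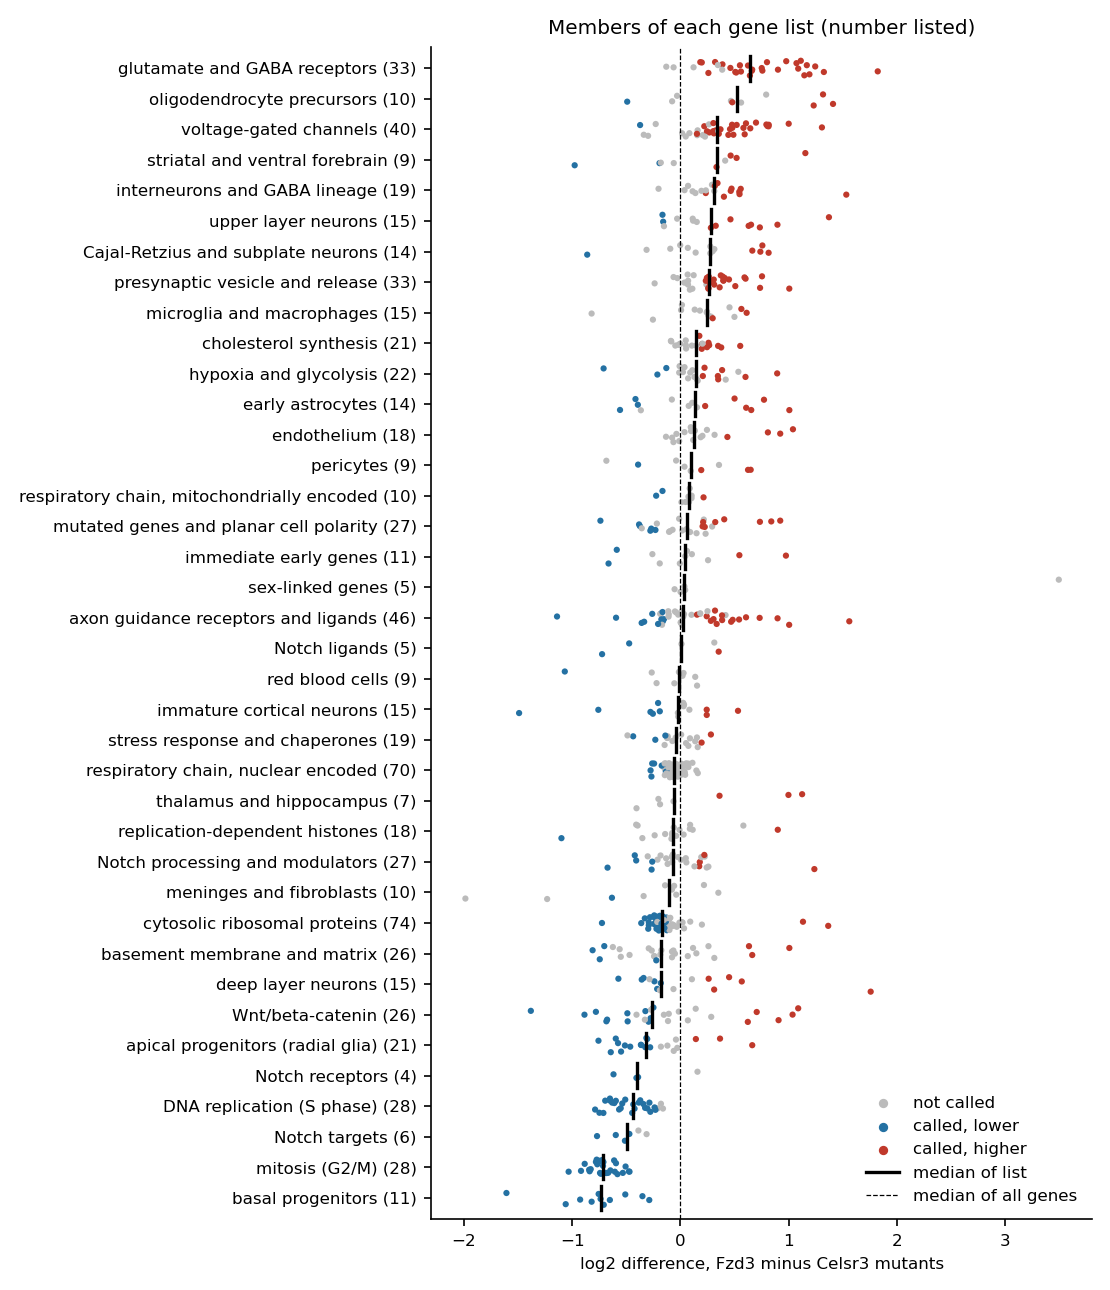
Log2 difference of each member (points, coloured where called) of the 38 gene lists with more than 2 listed genes, ordered by their median (black bars), with the median of all genes as a dashed line. Basal progenitor and mitosis lists lie at the low end with medians of -0.74 and -0.72, and glutamate and GABA receptors at the high end with 0.64.

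Receptors for glutamate and GABA, the main fast transmitters of the cortex, gave the highest median of the 39 lists, although oligodendrocyte precursor genes lay higher without *Fzd3* library 3 and with either block for the library number. Of 33 listed receptor genes, 28 were called higher and 0 lower, with a median of 0.64. *Grm7*, a metabotropic glutamate receptor of presynaptic terminals, measured 15, 13 and 9.35 CPM in *Fzd3* mutants and 4.01, 2.98 and 2.49 CPM in *Celsr3* mutants (log2 1.82, SE 0.195, adjusted P = 3.24e-04). *Grm2*, of the same receptor class, measured 28, 26.1 and 19.3 CPM against 10.5, 9.76 and 7.93 CPM (log2 1.32), and the GABA-A receptor subunit gene *Gabrg3* 9.24, 6.98 and 7.48 CPM against 3.24, 3.41 and 2.49 CPM (log2 1.24). The mutants did not overlap in any of these. *Gria2*, the AMPA receptor subunit that limits calcium entry, was the most abundant by CPM and higher at 664, 732 and 705 CPM against 506, 574 and 526 CPM (log2 0.39, adjusted P = 0.00135). *Grin1*, the obligatory subunit of NMDA receptors, was higher by 0.80, whereas the subunit gene *Grin2b* was not called (-0.064). The summed level was 2605, 2571 and 2488 CPM in *Fzd3* mutants, 2042, 2019.5 and 1895 CPM in *Celsr3* mutants and 2065, 1958 and 2076 CPM in controls. Here too the *Celsr3* mutants and controls overlapped and the *Fzd3* mutants stood apart.

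Channels and the release machinery leaned the same way. Of 40 voltage-gated channel genes, 27 were higher and 1 lower, with a median of 0.34. *Kcnh1*, a potassium channel, measured 1.79, 1.19 and 1.03 CPM against 0.2, 0.163 and 0.342 CPM (log2 1.31). All *Celsr3* values of *Kcnh1* lie below the pseudocount, and with pseudocounts of 0.1 and 1 its difference was 2.1 and 0.91. *Cacna2d2*, an auxiliary calcium channel subunit, measured 59.5, 54.1 and 54.5 CPM against 33, 33.4 and 28.6 CPM (log2 0.81, adjusted P = 1.35e-04). The groups were separate for *Kcnh1* and *Cacna2d2*, and the sodium channel genes *Scn1a* (0.59) and *Scn2a1* (0.64) were higher as well. The member called lower was *Kcnq3* (-0.37), and the calcium channel subunit gene *Cacnb3*, the most abundant by CPM, overlapped (0.015). Of 33 presynaptic genes, 21 were higher and 0 lower, with a median of 0.26. *Syt4*, a vesicle protein of the synaptotagmin family, measured 584, 553 and 518 CPM against 332, 243 and 256 CPM (log2 1.00, SE 0.102, adjusted P = 2.58e-04). *Syt1* (0.59), *Stx1a* (0.60) and *Snap25* (0.39), which act in vesicle fusion, were higher. The vesicular glutamate transporter genes *Slc17a7* (-0.24) and *Slc17a6* (-0.064) were not called.

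The counts in these lists fell when the spread was estimated gene by gene: with the ordinary linear model 18 receptor, 13 channel and 9 presynaptic genes were called higher. Without *Fzd3* library 1, 22 receptor, 18 channel and 15 presynaptic genes were called higher. Of the presynaptic genes, 1 was called lower without *Fzd3* library 1 or *Celsr3* library 2, and of the channel genes 2 without *Fzd3* library 3. With a block for the library number in 6 libraries, 2 receptor and 3 channel genes were called lower. No alternative changed the sign of any of the 3 medians.

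**Figure D4:**
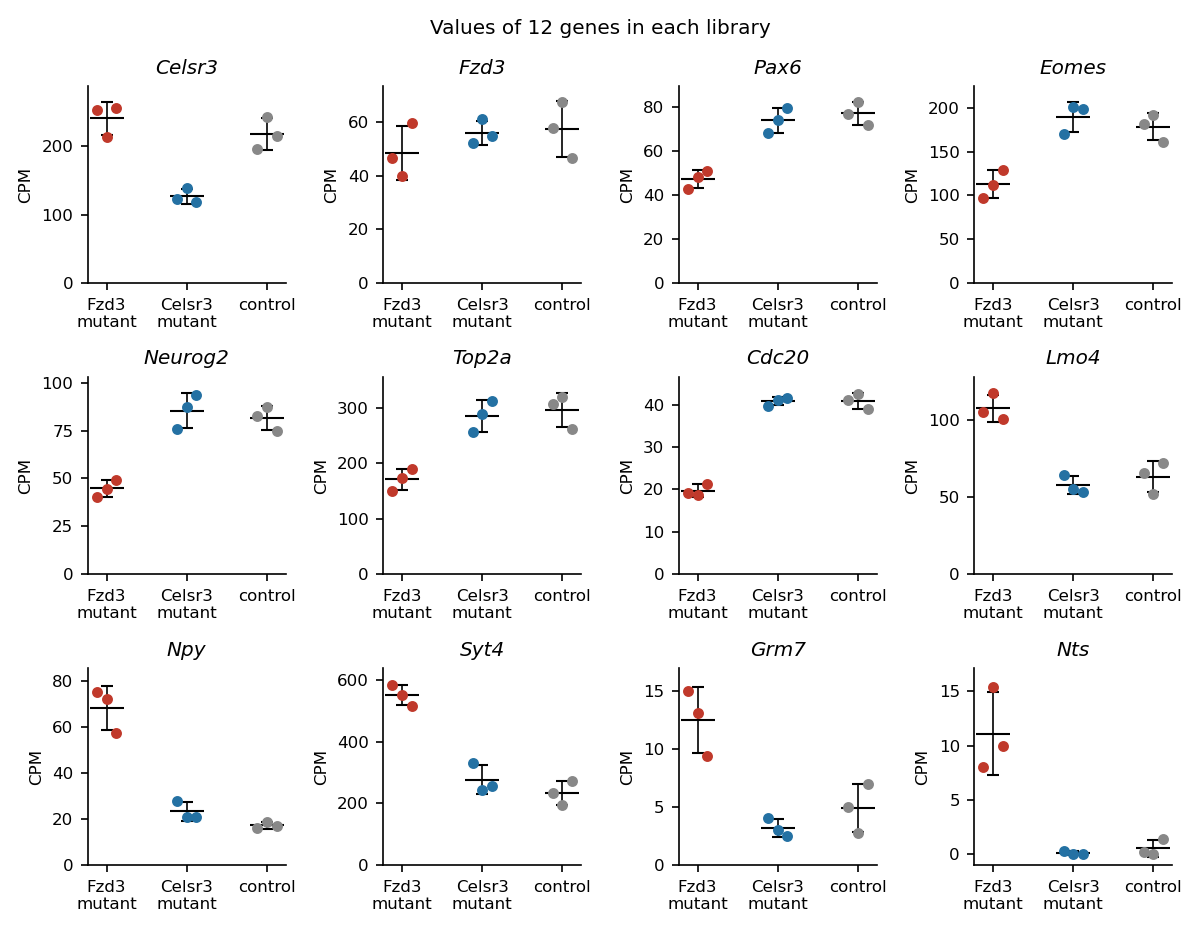
CPM of 12 genes in each library (points) with the mean and SD of each group of 3 (bars). Every *Fzd3* mutant value is apart from every *Celsr3* mutant value in each panel except that of *Fzd3*.

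Neuronal markers were listed by layer, and no test compared the layers. Of 15 upper layer markers, 8 were higher and 2 lower, with a median of 0.28, and of 15 listed deep layer markers 5 were higher and 6 lower, with a median of -0.18. *Lmo4*, a transcriptional cofactor, measured 105, 117 and 100.3 CPM in *Fzd3* mutants and 64.2, 55.2 and 53.3 CPM in *Celsr3* mutants (log2 0.90, SE 0.0794, adjusted P = 1.40e-04), and *Mef2c*, an activity-regulated transcription factor, 627, 598 and 571 CPM against 402, 351 and 330.4 CPM (log2 0.73). *Rasgrf2* was higher as well, at 9.15, 6.78 and 6.26 CPM against 2.64, 2.47 and 2.45 CPM, and none of the 3 overlapped. The POU factor genes *Pou3f2* (-0.17) and *Pou3f3* (-0.16) were lower, but *Pou3f2* was not called without *Fzd3* library 1 or 2 or *Celsr3* library 2 or 4, nor *Pou3f3* without *Fzd3* library 2, and neither was called with all 9 libraries in the fit. *Cux1* (-0.031), *Cux2* (0.11) and *Rorb* (0.15) were not called.

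Among deep layer genes, *Sox5*, which controls the identity of corticofugal neurons, measured 240.1, 225 and 269 CPM against 341, 382 and 368 CPM (log2 -0.57, adjusted P = 4.96e-04). *Fezf2* (-0.34), *Bcl11b* (-0.24) and *Tbr1* (-0.22), regulators of subcerebral and corticothalamic neurons, were lower too. *Crym*, which binds thyroid hormone, was higher, with 26.1, 29.2 and 12.4 CPM against 7.6, 5.75 and 4.74 CPM (log2 1.76, adjusted P = 0.00239). The lowest *Fzd3* value of *Crym*, from library 3, still lay above all *Celsr3* values, and control libraries 1 and 3 lay above that library. *Etv1* was higher by 0.57. The ordinary linear model made no call for *Crym*, *Bcl11b* or *Tbr1*, and the block over 9 libraries made none for *Bcl11b* or *Tbr1*. Without *Fzd3* library 2 or without a trend, *Tbr1* was not called. Without *Fzd3* library 1, 3 deep layer genes were called higher. Over the alternatives, 2 to 8 deep layer genes were called lower, and 5 to 9 upper layer genes were called higher.

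Genes of young neurons showed small differences apart from a few. Of 15 listed, 6 were lower (40%) and 3 higher (20%), beside 14.1% and 15.3% of all genes, with a median of -0.021. That median turned positive with quantile scaling or without *Fzd3* library 1 or 2. *Nhlh1*, a transcription factor expressed briefly as cells leave the cycle, measured 3.02, 2.74 and 4.83 CPM against 8.77, 10.6 and 12.7 CPM (log2 -1.49, SE 0.198, adjusted P = 8.91e-04). *Rnd2*, a small GTPase needed for radial migration, measured 61, 60.6 and 63.5 CPM against 105, 99.7 and 110.0 CPM (log2 -0.76, adjusted P = 2.34e-05). Both early genes were lower in *Fzd3* mutants, while *Gap43*, a growth cone protein, was higher at 339, 329.7 and 295 CPM against 243, 217 and 208 CPM (log2 0.53). *Dcx* overlapped (0.033). Of 14 listed markers of Cajal-Retzius and subplate neurons, the earliest cortical neurons, 4 were higher (28.6%) and 1 lower (7.14%), with a median of 0.28. *Nr4a2*, a marker of the subplate, was higher at 86, 89 and 80.6 CPM against 55.1, 50.9 and 45.1 CPM (log2 0.76), as were *Ctgf* (0.66), *Ndnf* (0.74) and *Calb2* (0.81). *Reln*, the secreted protein of Cajal-Retzius cells, measured 514, 446 and 651 CPM against 461, 470.3 and 371 CPM and overlapped. The lysophosphatidic acid receptor gene *Lpar1* was lower (-0.86). Without *Fzd3* library 2, or with the ordinary linear model, *Calb2* was not called, and *Ctgf* was not called without *Fzd3* library 1 or 2 or *Celsr3* library 1 or 2. Without *Celsr3* library 1, 2 of the 14 were called lower.

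Interneurons reach the cortex by migration from the ventral forebrain. Of 19 listed markers, 10 were called higher and 0 lower, with a median of 0.31, and *Lhx8* and *Nkx2-1* are not listed. *Npy*, a neuropeptide of a subset of interneurons, measured 75.2, 72.2 and 57.3 CPM in *Fzd3* mutants and 28, 21 and 21 CPM in *Celsr3* mutants (log2 1.53, SE 0.129, adjusted P = 1.04e-04). This was the largest difference of the list, with no overlap. The GABA-synthesising enzyme genes *Gad1* (0.54) and *Gad2* (0.23) and the transcription factor gene *Maf* (46.3, 46.9 and 36.1 CPM against 31.4, 27.6 and 28 CPM, log2 0.56) were higher. *Dlx1*, the most abundant by CPM, measured 95.5, 88.5 and 73.5 CPM against 84.6, 72.3 and 67.8 CPM and overlapped, and *Lhx6* (0.29) and *Sst* (0.31) were not called. The summed level was 667, 615 and 534 CPM in *Fzd3* mutants, 509, 449 and 416 CPM in *Celsr3* mutants and 484, 499.6 and 525 CPM in controls. The *Fzd3* mutants lay above the *Celsr3* mutants in this sum, and *Fzd3* library 3 was the closest to them. The number called higher ran from 1 to 11 over the 20 alternatives, 1 with the ordinary linear model, 3 without *Fzd3* library 1, 5 without *Fzd3* library 2 and 4 without *Celsr3* library 4. *Gad2* was called in only 1 of the fits without a library, that without *Celsr3* library 1. The share of these markers in the receptor and channel differences was not tested.

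Markers of neighbouring brain regions were few. Of 18 striatal and ventral forebrain markers, 9 are listed, with *Isl1*, *Gsx2*, *Drd2*, *Penk*, *Tac1* and *Six3* among those not listed. Of the 9, 2 were lower (22.2%) and 4 higher (44.4%), beside 14.1% and 15.3% of all genes. The most abundant by CPM was *Meis2* at 355, 357 and 351 CPM against 404, 408 and 404 CPM (log2 -0.19). *Foxp1*, which cortical neurons also express, was higher (0.52), and *Ebf1* was lower (-0.98). The summed level was 557, 555 and 541 CPM in *Fzd3* mutants and 566, 561 and 551 CPM in *Celsr3* mutants, and these overlapped. Of 7 listed thalamic and hippocampal markers, 3 were higher (42.9%) and 0 lower, with a median of -0.064 and summed levels of 170.0, 159 and 182 CPM against 157, 178 and 166 CPM. *Prox1* (14.3, 13 and 10 CPM against 5.93, 6.82 and 5.14 CPM), *Ociad2* (19.9, 21.4 and 18.6 CPM against 6.1, 9.94 and 11.4 CPM) and *Rora* (0.36) were the members called. *Zbtb20*, the most abundant by CPM, overlapped (-0.19), and *Gbx2* and *Wnt8b* are not listed. *Rora* was not called when any single library was left out, 1 gene of this list was called lower without *Fzd3* library 3, and with a filter at a mean of 5 CPM the median was 0.47. The part of neighbouring regions in the other differences was not tested.

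Glial markers were called in both directions. Of 10 listed markers of oligodendrocyte precursors, 4 were higher (40%) and 1 lower (10%), beside 15.3% and 14.1% of all genes, with a median of 0.52. *Olig1*, a transcription factor of this lineage, measured 14.8, 12.6 and 8.29 CPM against 5.66, 4.63 and 3.8 CPM (log2 1.23, adjusted P = 0.00268). *Egfr*, a growth factor receptor, measured 13, 12.4 and 8.36 CPM against 4.64, 3.94 and 3.1 CPM (log2 1.41), and *Olig2* 11.6, 11.4 and 5.23 CPM against 4.83, 3.28 and 2.15 CPM (log2 1.32). Library 3 was the lowest of the *Fzd3* mutants in all 3 genes, yet above every *Celsr3* value. *Gpr17* (0.79) and *Sox10* (0.47) were not called. Without *Fzd3* library 1 or library 2, *Olig2* was not called and 2 genes of the list were called higher, against 7 without library 3. The gene called lower lost its call without *Fzd3* library 1 or 2 or *Celsr3* library 4, and with the ordinary linear model 1 gene was called higher and 0 lower. The list summed to 138, 129.5 and 92 CPM in *Fzd3* mutants and 97.2, 80.4 and 88.9 CPM in *Celsr3* mutants, with *Cnp* the most abundant, so library 3 of *Fzd3* lay within the *Celsr3* range.

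Of 14 listed early astrocyte genes, 6 were higher (42.9%) and 3 lower (21.4%), beside 15.3% and 14.1% of all genes. The median was 0.13, and *Gfap*, *Aqp4* and *S100b* are not listed. The glutamate transporter gene *Slc1a2* measured 47.4, 41.4 and 44 CPM against 26.8, 26.6 and 23.8 CPM (log2 0.77, adjusted P = 1.71e-04), and the proteoglycan gene *Bcan* 25.6, 28.6 and 28.2 CPM against 9.55, 18.3 and 13.8 CPM (log2 1.01). Both were higher with no overlap, as was *Aldh1l1* (0.65). *Nfib* (826, 815 and 1039 CPM against 1107, 1281 and 1170.2 CPM) and *Nfia* (-0.39), which promote glial fate and are also expressed in radial glia and deep layer neurons, were lower, with the receptor gene *Fgfr3* (-0.56). The list summed to 2196, 2182 and 2423 CPM in *Fzd3* mutants and 2349.6, 2703 and 2475 CPM in *Celsr3* mutants, with *Nfib* the most abundant, and these overlapped. With the ordinary linear model 1 gene was called higher and 0 lower.

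The counts called among vascular and immune markers depended on single libraries. Of 18 listed endothelial genes, 4 were higher (22.2%, beside 15.3% of all genes) and 0 lower, with a median of 0.13. The sum was 422, 417 and 375 CPM in *Fzd3* mutants and 336, 314 and 404 CPM in *Celsr3* mutants, with *Slc2a1* the most abundant. *Slco1c1*, a thyroid hormone transporter of brain vessels, measured 37.8, 46 and 33.8 CPM against 20.6, 20.2 and 20.1 CPM (log2 0.92, adjusted P = 3.49e-04), and the VEGF receptor gene *Flt1* 30.4, 24.2 and 24.5 CPM against 14, 12.9 and 17.9 CPM (log2 0.81). *Cldn5* (0.19) and *Pecam1* (-0.038) were not called. Without *Celsr3* library 4, 7 endothelial genes were called higher, and without *Fzd3* library 1, *Fzd3* library 2 or *Celsr3* library 2 the count was 2. Of 9 listed pericyte genes, 3 were higher (33.3%) and 1 lower (11.1%), with a median of 0.095. The sums were 133, 131 and 118 CPM against 121, 114 and 148 CPM, with *Rgs5*, the most abundant, at 0.037. Without *Fzd3* library 1, *Fzd3* library 2 or *Celsr3* library 1, 1 pericyte gene was called higher. The gene called lower was *Notch3*, which is also counted among the Notch receptors above. Its call was lost without *Fzd3* library 2 or 3 or *Celsr3* library 2 or 4. The pericyte median turned negative without *Celsr3* library 1 or 2. Of 15 listed microglia and macrophage genes, 3 were higher (20%, beside 15.3% of all genes) and 0 lower, with a median of 0.25. The sums were 149.7, 148 and 118 CPM against 106, 114 and 136 CPM. The complement gene *C1qc* measured 4.23, 4.04 and 3.55 CPM against 1.65, 2.88 and 2.85 CPM, and 9 microglia genes were called without *Fzd3* library 3 but 0 without *Fzd3* library 1, *Fzd3* library 2 or *Celsr3* library 1.

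Meningeal and choroid plexus markers were present at uneven levels. Of 10 listed meningeal genes, 1 was called lower (10%) and 0 higher, beside 14.1% and 15.3% of all genes. The median was -0.11, with sums of 215, 193 and 180.5 CPM in *Fzd3* mutants and 201, 169 and 431 CPM in *Celsr3* mutants. *Celsr3* library 4 was the high value, *Fn1* was the most abundant by CPM, and *Lum*, *Foxd1* and *Aldh1a2* are not listed. The gene called was *Bgn*, at 11, 11.2 and 9.98 CPM against 13.2, 14.2 and 25.7 CPM, and it was not called without any 1 of the *Fzd3* libraries. Without *Celsr3* library 2, 2 genes were called lower. Without *Celsr3* library 4, 1 gene was called lower and 4 higher, and the median turned positive, within a range of -0.37 to 0.25 over the alternatives. Of 12 choroid plexus genes, 2 are listed, *Enpp2* (-0.16) and *Foxj1* (-0.15), neither called, and *Ttr* and *Otx2* are not listed. Of 9 listed red blood cell genes, 1 was lower (11.1%) and 0 higher, with sums of 2320.0, 2475 and 1598 CPM against 2448, 1612 and 2565 CPM that overlapped. *Hba-a1*, the most abundant, which can share reads with its near copy *Hba-a2*, measured 0.019 on the log2 scale. The embryonic globin gene *Hbb-y* was lower at 0.302, 0.41 and 0.134 CPM against 1.27, 0.544 and 1.81 CPM, a call not made without *Fzd3* library 1 or 3 or *Celsr3* library 1 or 4.

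Axon guidance genes, whose products steer growing axons, moved in both directions. Of 46 listed, 16 were higher (34.8%) and 11 lower (23.9%), beside 15.3% and 14.1% of all genes, with a median of 0.02. *Sema5a*, a transmembrane semaphorin, measured 59.2, 52.4 and 71.9 CPM in *Fzd3* mutants and 121, 139.5 and 144 CPM in *Celsr3* mutants, with no overlap (log2 -1.14, SE 0.108, adjusted P = 1.94e-04). *Epha6*, an ephrin receptor, measured 6.87, 4.86 and 4.22 CPM against 1.67, 1.34 and 1.32 CPM (log2 1.56), and the repellent gene *Slit3* 6.64, 5.29 and 6.2 CPM against 2.76, 2.63 and 2.88 CPM (log2 1.00). These were higher in *Fzd3* mutants, along with the netrin receptor gene *Unc5c* (0.90). *Efnb1* (-0.59) and *Slit1* (-0.34) were lower, and the receptors *Robo1* (0.013) and *Dcc* (-0.11) were not called. *Plxna2*, the most abundant by CPM, measured 611, 548 and 651 CPM against 702, 712 and 645 CPM, and the mutants overlapped. Over the 20 alternatives the count lower ran from 2 to 12 and the count higher from 6 to 17. Without *Fzd3* library 1 or 2, 7 were lower, without *Fzd3* library 1, 10 were higher, and the median turned negative without *Celsr3* library 4.

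Of 26 listed matrix genes, 4 were lower (15.4%) and 3 higher (11.5%), no larger a share than the 29.4% called of all genes, with a median of -0.18. *Col18a1*, a collagen of basement membranes, measured 12.6, 9.31 and 9.81 CPM against 14.2, 15.1 and 30.7 CPM, and *Hspg2*, the perlecan gene, 17.1, 11 and 20.3 CPM against 25.7, 25.9 and 28.4 CPM. Both were lower, and *Celsr3* library 4 held the highest value of each. *Bcan*, *Tnc* and *Tnr* (0.63), matrix proteins of neural cells, were the genes called higher, and *Ncan*, the most abundant by CPM, overlapped (-0.051). The ordinary linear model made no call for *Hspg2* or *Col18a1*, and *Col18a1* was not called without any 1 of the *Fzd3* libraries. The count lower ran from 0 with that model to 8 with all 9 libraries in the fit, and was 1 without *Fzd3* library 1, 2 without library 2 or 3 and 7 without *Celsr3* library 1.

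Cytosolic ribosomal proteins, the parts of the translation machinery, were lower by small amounts. Of 74 listed, 53 were called lower and 2 higher, with a median of -0.17. *Rpl4* measured 1062, 1061 and 1017 CPM in *Fzd3* mutants and 1238, 1193 and 1201 CPM in *Celsr3* mutants (log2 -0.21, SE 0.039, adjusted P = 0.00441). The sum over the list was 32591, 33002 and 31751 CPM in *Fzd3* mutants, 36208, 35387 and 36725 CPM in *Celsr3* mutants and 36433, 35659 and 35947 CPM in controls, and the *Fzd3* mutants lay below both. The extreme members were *Rpl29* (means of 267 ± 55.7 against 102 ± 2.08 CPM, SD, n = 3, log2 1.36), *Rps2* (413, 399 and 382 CPM against 177, 186 and 181 CPM, log2 1.13) and *Rplp0* (log2 -0.72). These genes have processed copies elsewhere in the genome that can share reads with them, so their values are uncertain. The count lower fell to 17 with a replicate block over 9 libraries.

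Respiratory chain genes had small medians. Of 70 listed nuclear genes of the respiratory chain, 8 were lower (11.4%) and 0 higher, beside 14.1% and 15.3% of all genes, with a median of -0.059. Without *Fzd3* library 1 or 2 or *Celsr3* library 1 or 2 the count lower was 5, and without *Fzd3* library 3, 2 were higher. *Atp5b*, the most abundant of them, differed by -0.073 and was not called, and *Atp5g2* was lower by -0.28 on the log2 scale. Of 10 mitochondrially encoded genes, 2 were lower (20%) and 1 higher (10%), with a median of 0.076. The higher call was lost without any 1 library but *Celsr3* library 4, the count lower was 1 without *Fzd3* library 1 or 2 or *Celsr3* library 1 or 4, and both counts were 0 without a trend and with the ordinary linear model. Of 22 hypoxia and glycolysis genes, 7 were higher (31.8%) and 3 lower (13.6%), with a median of 0.14. *Pfkp*, a phosphofructokinase, measured 113, 110.3 and 121 CPM against 61.5, 69.8 and 54.6 CPM (log2 0.89, adjusted P = 1.65e-04), and *Hk2*, a hexokinase found in progenitors, 9.01, 8.75 and 8.25 CPM against 12.9, 15.5 and 15.2 CPM (log2 -0.71). The growth factor gene *Vegfa* was higher (0.60) and the pyruvate kinase gene *Pkm* lower (-0.21). Of 21 cholesterol synthesis genes, 9 were higher and 0 lower (median 0.15), led by *Hmgcs1* at 563, 553 and 561 CPM against 407, 372 and 366 CPM (log2 0.55, adjusted P = 9.81e-05). Over the alternatives, 2 to 14 hypoxia and glycolysis genes and 2 to 9 cholesterol genes were called higher, with 13 of the former without *Fzd3* library 3, and 5, 4 and 5 of the latter without *Fzd3* library 1, *Celsr3* library 2 and *Celsr3* library 4.

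Immediate early genes, which neurons switch on within minutes of a stimulus, and stress genes were called at shares near those of all genes. Of 11 listed immediate early genes, 2 were lower and 2 higher (18.2% each, median 0.044), beside 14.1% and 15.3% of all genes. *Egr1* measured 4.76, 4.95 and 2.6 CPM against 1.85, 1.67 and 1.79 CPM (log2 0.97), *Ier2* 3.55, 3.61 and 3.89 CPM against 5.96, 6.08 and 6.35 CPM (log2 -0.66) and *Ier5* 52.1, 54.1 and 60.5 CPM against 73, 89.3 and 89.5 CPM (log2 -0.59). *Egr1* was higher and the *Ier* genes lower, and *Fos* and *Npas4* are not listed. The median turned negative without *Fzd3* library 1, with quantile scaling or with a filter at a mean of 5 CPM, and was -0.19 at the lowest. Of 19 listed stress and chaperone genes, 3 were lower (15.8%) and 2 higher (10.5%, median -0.044), with *Atf5* at -0.44 and *Asns* at 0.28, and *Hspa8*, the most abundant, overlapped. Without any 1 library but *Celsr3* library 4, 1 stress gene was called higher. Of the 5 listed sex-linked genes, *Xist* (3.49, adjusted P = 0.236), *Kdm6a* (0.036) and the other 3, 0 were called by limma (1 without *Celsr3* library 2), and the spread of *Xist* comes from *Celsr3* library 2.

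Called genes with a given name, no overlap between the mutants and a mean of at least 5 CPM were ranked by their difference. Separate groups were thus a condition of the choice and not a result. The largest differences included several genes outside these lists. Lowest was *Gsta4*, a glutathione transferase that clears products of lipid oxidation, with 0.859, 1.25 and 1.37 CPM in *Fzd3* mutants and 10.9, 6.06 and 11.5 CPM in *Celsr3* mutants. This was a 5.85-fold difference (log2 -2.55, SE 0.233, limma adjusted P = 1.64e-04). *Esd*, an esterase, measured 44.9, 48.2 and 46.2 CPM against 111, 117 and 121 CPM (log2 -1.32, adjusted P = 1.34e-06), with narrow groups. *Tbc1d4*, a GTPase-activating protein for Rab proteins, measured 8.27, 7.62 and 7.03 CPM against 20.9, 20.1 and 21 CPM (log2 -1.38, adjusted P = 2.01e-05). *Txnip*, which binds thioredoxin and limits glucose uptake, measured 39.2, 43.3 and 48.9 CPM against 88.8, 94.4 and 107 CPM (log2 -1.14). With *Nhlh1*, *Tcf7l1* and *Sema5a*, the 12 lowest also held *Col2a1* (-1.27), *Tmsb15l* (-1.19) and *Ranbp17* (-1.18), and the values of 2 more are uncertain. *Tpm3-rs7* (27.8, 27.5 and 25.6 CPM against 111, 65.8 and 106 CPM) is a copy of a tropomyosin gene. *Jmjd7* (7.34, 6.18 and 22.1 CPM against 27.9, 29.5 and 33.7 CPM) overlaps its neighbouring gene. *Jmjd7* was not called without *Fzd3* library 1, without a trend or with robust moderation.

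Highest was *Nts*, the precursor of the neuropeptide neurotensin, with 7.99, 15.4 and 9.93 CPM in *Fzd3* mutants, 0.317, 0.0363 and 0 CPM in *Celsr3* mutants and 0.212, 0.0164 and 1.4 CPM in controls. *Celsr3* libraries 2 and 4 lay below the level of 3 reads. The fitted log2 difference of 4.22 (SE 0.26, limma adjusted P = 2.09e-05) therefore depends on the pseudocount, and it ran from 3.4 to 5.92 over the alternatives. *Trank1* measured 33.3, 27.1 and 21.8 CPM against 7.98, 6.39 and 4.53 CPM (log2 2.05, adjusted P = 2.08e-04). *Met*, the hepatocyte growth factor receptor found in a subset of cortical projection neurons, measured 50.6, 54.6 and 40.2 CPM against 20, 13.2 and 13.5 CPM (log2 1.62, adjusted P = 2.29e-04). *Kcnj2*, an inward rectifier potassium channel, measured 19.7, 22 and 19.4 CPM against 8.9, 5.12 and 5.35 CPM (log2 1.62). Also higher were the kinase gene *Ptk2b* (12.7, 14 and 10.9 CPM against 3.27, 4.37 and 2.56 CPM), the kinase gene *Stk32a* (16, 16.7 and 16.2 CPM against 5.06, 4.74 and 3.92 CPM) and the calmodulin-binding protein gene *Nrgn* (12.8, 10.6 and 7.41 CPM against 4.74, 2.69 and 1.95 CPM). As for the lowest genes, no overlap was a condition of the choice. *Snhg11* (1.75), a host gene of small nucleolar RNAs, *Wscd2* (1.71), *Grm7*, *Crym* and the histocompatibility gene *H2-D1* (1.93) complete the 12. In *Stk32a* the controls, at 9.69, 10.2 and 10.4 CPM, lay between the mutants. *Jmjd7*, *Col2a1*, *Ranbp17*, *Crym* and *Nrgn* were not called with the ordinary linear model.

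A mutated allele is inherited with the chromosome around it, so the neighbourhoods of both mutated genes were counted. Within 10 Mb of *Fzd3*, 154 genes are listed, of which 29 were lower and 18 higher (30.5% called, beside 29.4% of all genes). *Ptk2b* (1.76) and *Nefl*, the light neurofilament gene, at 77.4, 79.2 and 71.6 CPM against 35.4, 31.8 and 28.2 CPM (log2 1.25), were higher, and *Esd* was lower. Within 10 Mb of *Celsr3*, 178 genes are listed, of which 18 were lower and 36 higher (30.3% called), and the members with the largest differences were *Trank1* (2.05), *Cpne4* (1.5) and *Abhd14a* (1.47). *Abhd14a* overlaps a neighbouring gene, so its value is uncertain. These counts are of rows, and *Rb1* near *Fzd3* and *Rbm15b* near *Celsr3* each have a repeated row. The total share called near either mutated gene was close to that over all genes. By direction, lower calls outnumbered higher calls near *Fzd3*, and higher calls outnumbered lower calls near *Celsr3*. Over all genes 14.1% were lower and 15.3% higher. *Grm2*, *Cacna2d2*, *Rpl29* and *Eomes*, described above, also lie within 10 Mb of *Celsr3*. Strain differences around the alleles and the mutations cannot be told apart for any of these genes.

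**Figure D5:**
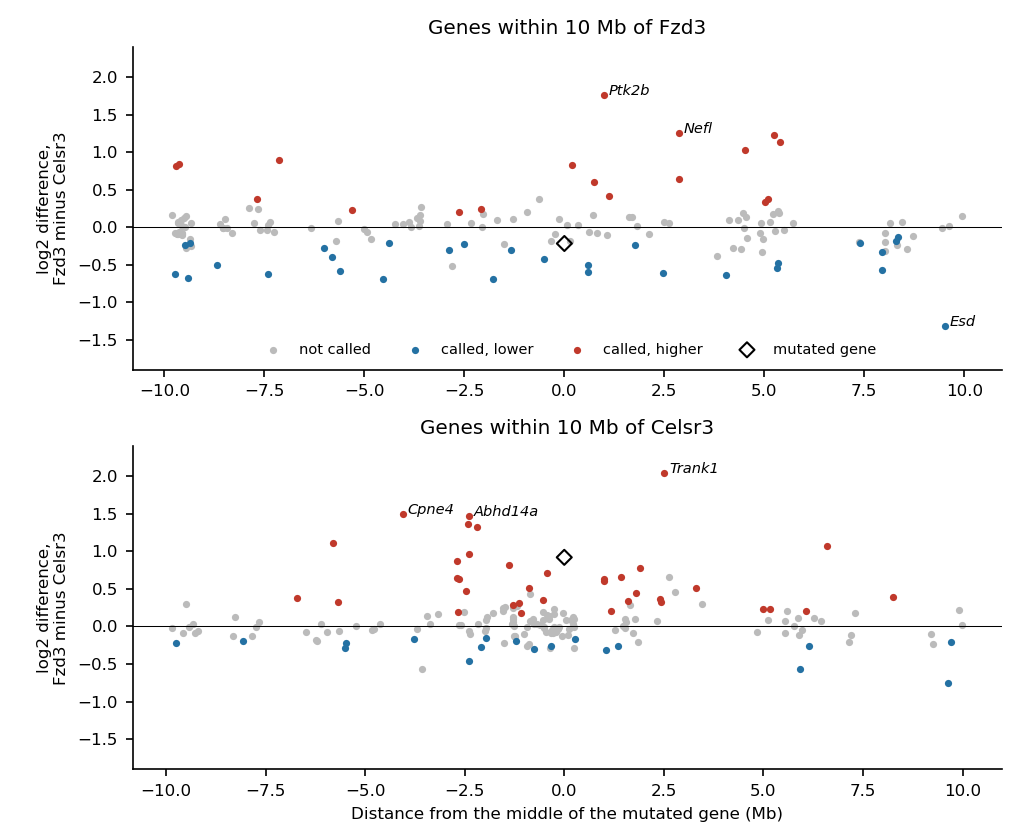
Log2 difference of genes within 10 Mb of *Fzd3* (top, 154 genes) and of *Celsr3* (bottom, 178 genes) against their distance from the middle of the mutated gene in Mb, with called genes coloured by direction. Near *Fzd3*, 29 genes are lower and 18 higher, and near *Celsr3*, 18 are lower and 36 higher.

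Few genes were absent from a mutant. Only *Gm5576* and *Gm8994*, which have no given name, were at 0 in all 3 *Fzd3* libraries and above 1 CPM in all 3 *Celsr3* libraries, with 1.3, 1.72 and 2.71 CPM and 1.24, 1.67 and 2.51 CPM in the *Celsr3* mutants. The controls held 2.77, 3.02 and 2.98 CPM of *Gm5576* and 2.62, 2.78 and 2.88 CPM of *Gm8994*. Their values ran close together in every library. Whether they share reads was not examined, so whether they are separate genes is open. No gene was at 0 in all *Celsr3* libraries and above 1 CPM in all *Fzd3* libraries, a count of 0.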

How the data were processed

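RNA was measured in 9 libraries of embryonic cortex. The deposited table gives CPM per gene, made by the authors with FastQC, Bowtie, TopHat, Cufflinks 2.1.1 and edgeR 2.12, with a scaling factor per library. GRCm38 and GRCh37 are listed without a role. Low genes had been left out. In the mutant libraries 3 reads are 0.0427 to 0.0697 CPM, which covers counting error only. Log2(CPM + 0.5) of the 6 mutant libraries was fitted with limma 3.58.1 in R 4.3.3 (trended moderation), with Benjamini-Hochberg adjustment over 14670 genes, a threshold of 0.05 and no further filter. The code was tested on simulated data. Positions came from GENCODE M21, which matched 14407 genes. Tables used Python 3.11.15, numpy 2.4.6, pandas 2.3.3 and scipy 1.17.1.

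Named genes are the mutated genes, the 12 lowest and 12 highest called genes with a given name, no overlap and a mean of at least 5 CPM, the most abundant member and up to 3 called members with the largest differences in each list (every member of lists of 6 or fewer), genes at 0 in a mutant, and up to 3 called genes within 10 Mb of each mutated gene. Other members were chosen after their values were seen. Members and lists were chosen with earlier results of these data known. Alternatives changed the pseudocount, filter, scaling, model, block and libraries. Of the table's sample columns, 0 were left unused. Some members of the lists are not reported by name.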

Additional observations from a re-analysis of the deposited data

How the results depend on the processing

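Of 171 named genes 140 were called, 86 kept their call under every alternative in which they were tested (18 to 20), 122 did so under all but the 9-library block and the ordinary linear model, and 0 of the called genes reversed. With pseudocounts, filters, scalings, all 9 libraries, no trend or robust moderation, the number called ran from 3437 to 4364, and the median of all genes lay furthest from 0 with quantile scaling, at -0.0235. Leaving out a library gave 2771 to 4468 called, 1314 to 2137 lower and 1457 to 2331 higher. Among the fits that left out a library, the count moved most without *Fzd3* library 1 (2771, 1314 lower and 1457 higher). The ordinary linear model gave 2006 (989 lower, 1017 higher), and the cause was not tested. Among the genes it did not call were *Maf*, *Ociad2*, *Olig1*, *Nfib*, *Bcan*, *Aldh1l1*, *Flt1*, *Cdc6*, *Rplp0*, *Vegfa*, *Egr1*, *Ier5*, *Atf5*, *Asns*, *Atp5g2* and *Cpne4*. Among the genes the 9-library block did not call were *Hes1*, *Notch3*, *Rora*, *Bgn*, *C1qc*, *Hbb-y*, *Col18a1*, *Etv1*, *Nfib*, *Aldh1l1*, *Hspg2*, *Notch2*, *Jag2*, *Slit3*, *Pkm*, *Asns*, *Cpne4* and *Ranbp17*. The 3 planned count tests on whole reads, edgeR, DESeq2 and limma-voom, were not run: the table holds CPM, and the whole reads recovered from its steps were not used for tests.

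A block for the library number gave 4169 called in 6 libraries (1909 lower, 2260 higher, 3498 of them called without it) and 2101 in 9 libraries (918 lower, 1183 higher). Only numbers 1 and 2 occur in both mutants, and the deviations of libraries with the same number correlated at 0.192 and -0.0799 across genes, beside -0.158 to 0.112 for other pairs. Mutants and controls with the same number correlated at -0.199 to 0.0728, and at -0.163 to 0.188 otherwise. The labels do not say what a number marks, so samples share only a number, and the pairs between the mutants are too few to decide it.

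Among genes not called, some log2 differences changed sign, and the cause was not tested. With quantile scaling, *Ptprz1* had 0.024 and *Jag1* had -0.022. With the 6-library block, *Dcx* had -0.025, *Enpp2* had 0.26, *Fn1* had 0.013 and *Kdm5c* had -0.0025. With the 9-library block, *Enpp2* had 0.14, *Fn1* had 0.017, *Jag1* had -0.00057 and *Ddx3x* had 0.0022. Leaving out a library gave -0.072 to 0.031 for *Ptprz1*, -0.33 to 0.11 for *Enpp2*, -0.062 to 0.18 for *Slc2a1*, -0.047 to 0.16 for *Rgs5*, -0.18 to 0.20 for *Hba-a1*, -0.031 to 0.045 for *Jag1*, -0.11 to 0.15 for *Kdm6a*, -0.14 to 0.14 for *Eif2s3x* and -0.12 to 0.069 for *Kdm5c*.

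The number of libraries limits small differences, depth limits genes near 3 reads, and bulk tissue gives no levels per cell.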

Other observations

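Groups in these paragraphs were chosen after their values were seen. Chromosome 14 carries *Fzd3*, and 242 of its 580 listed genes were called (41.7%), beside 25.8% to 32.7% on the other nuclear chromosomes. The excess sat in the first 10 Mb, far from *Fzd3*, where 95 genes are listed and 4 were lower and 79 higher. Of these, 84 are predicted genes with Gm symbols, and 76 of them were higher and 1 lower, with a median log2 difference of 1.67. Their summed level was 3165, 3457 and 4281 CPM in *Fzd3* mutants, 1218, 1131 and 1270.2 CPM in *Celsr3* mutants and 1149.8, 860.4 and 1051 CPM in controls. Such predicted genes can be copies that share reads, which was not examined, so how many separate genes they are is open. On the rest of the chromosome, 82 of 485 genes were lower and 77 higher (32.8% called), with a median of -0.0075.

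Processed pseudogenes, which arise from copied mRNA, were seldom called higher: of 620 listed, 99 were lower (16%) and 29 higher (4.68%), beside 14.1% and 15.3% of all genes, with a median of -0.11. They can share reads with their parent genes, so single values are uncertain. Of 12 histocompatibility genes whose symbols begin with H2, 3 were higher and 0 lower (25% called, beside 29.4% of all genes). *H2-D1* measured 19.7, 19.7 and 19.6 CPM in *Fzd3* mutants, 4.79, 4.25 and 5.38 CPM in *Celsr3* mutants and 13.7, 5.6 and 5.59 CPM in controls. *H2-T10* measured 5.41, 5.77 and 5.21 CPM in *Fzd3* mutants, 0.484, 0.327 and 0.484 CPM in *Celsr3* mutants and 6.03, 0.378 and 0.201 CPM in controls. In both genes control library 1 lay apart from the other controls, on the side of the *Fzd3* mutants. These genes vary between mouse strains and have close copies, and strain and mutation cannot be told apart here.

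Large differences also occurred in rarer named genes. *Baiap2l1*, which shapes membranes through actin, measured 6.74, 5.64 and 9.6 CPM in *Fzd3* mutants and 0.0334, 0.181 and 0.0712 CPM in *Celsr3* mutants (log2 3.69, limma adjusted P = 1.16e-05). The chemokine gene *Ccl28* measured 6.13, 4.28 and 4.35 CPM against 0.518, 0.726 and 0.0854 CPM (log2 2.57), and *Edaradd*, an adaptor of ectodysplasin signalling, 6.48, 5.46 and 3.97 CPM against 1.27, 0.889 and 0.598 CPM (log2 2.04). In all 3 the *Fzd3* mutants were higher with no overlap. All *Celsr3* values of *Baiap2l1*, with library 1 below 3 reads, and that of library 4 for *Ccl28* lie below the pseudocount of 0.5, so these log2 differences depend on it. Among 76 symbol families of at least 15 genes, picked by their values, 10 of 17 listed Sox genes were lower (58.8%, beside 14.1% of all genes) and 0 higher (median -0.31), and 15 of 32 kinesin genes (Kif) were lower (46.9%) and 5 higher (15.6%, median -0.22). Of 229 solute carriers (Slc), 56 were higher (24.5%, beside 15.3% of all genes) and 14 lower (6.11%, median 0.10). Of 21 clustered protocadherins of the beta cluster (Pcdhb), 0 were called by limma, with a median of 0.14.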
